A study of Danio rerio with 5 samples.

Results

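The sites described here are stretches of zebrafish chromosome, away from the chromosome ends, where peaks were called for Blf-FLAG and none for Drl-FLAG. Overlap of 1 bp or more joined peaks of the 4 deposited lists into 1 site, with the mitochondrial genome left out. A site was kept when both Blf-FLAG lists had a peak in it and neither Drl-FLAG list did. Sites centred within 1 Mb of a chromosome end, or on chromosome 4 from 30 Mb, were dropped. This left 1984 of 11333 nuclear sites, called Blf-only sites below. Of the 9224 interior sites, 21.5% were of this kind, as were 22.6% of all nuclear sites (2561) and 65.8% of the 3015 interior sites with a peak in both Blf-FLAG lists. The sites were thus chosen by the peak calls of these same lists, so the shares, and the fragments and folds below, describe the choice and test nothing.

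Blf (bloody fingers) and Drl (draculin) are zinc-finger proteins of zebrafish, a family in which rows of small zinc-binding folds can contact DNA. Both genes are known for expression in the mesoderm of the early embryo that forms blood. CUT&Tag reads the position of such a protein in permeabilised cells, because an antibody brings a transposase that cuts and tags the DNA next to it. A pile of tagged fragments over a position is then called as a peak.

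Every library, the input included, came from blf-/-; drl 4KO embryos, which carry mutations in blf and, by the label, a knockout written as 4KO for drl. The Blf-FLAG libraries (2) came from such embryos given blf-Flag mRNA, and the Drl-FLAG libraries (2) from those given drl-Flag mRNA, by the genotype labels. The extraction protocol names both mRNAs for every library, so the separation of the factors rests on the titles and genotype labels. RFP+ haematopoietic progenitors were sorted at 20 hours post fertilisation, and anti-FLAG was the antibody. A single input library without antibody is labelled with drl-Flag mRNA and was not analysed here. The protein came from injected mRNA, which is not limited to the cells or the amount of the native gene. The labels do not name the gene whose control elements drive RFP, and the identity of the sorted cells cannot be checked from peak positions.

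Depth was read back from the peak values, and control background means the level with which the peak caller compared a summit; the library it came from is not stated in the sources. Background coverage came to 0.313 fragments per base in both Blf-FLAG lists and 0.919 in both Drl-FLAG lists, a ratio of 2.94. The lists held 5289 to 5482 peaks. Sequence and gene annotation of GRCz11, the build of the positions, were not used here, so sites are named by position and no sequence is shown.

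A Blf-only site typically rested on few fragments. In Blf-FLAG 1 the summits of these sites held 4 to 74 fragments, with a median of 7 and quartiles of 5 and 11. In Blf-FLAG 2 they held 4 to 72, with the same median and quartiles. Summits with 4, 5 or 6 fragments made up 12.4%, 17.5% and 15.0% of the 1989 peaks in Blf-FLAG 1. At least 10 fragments were found at 596 of them, at least 20 at 113 (5.68%) and at least 30 at 26 (1.31%). Counts in Blf-FLAG 2 were close to these, with 593 of 1988 peaks at 10 fragments or more.

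The authors' fold enrichment moved in steps for this reason. At the commonest control background of the list, 4 fragments correspond to a fold of 3.81, 5 fragments to 4.57 and 6 fragments to 5.33. The median fold at Blf-only sites was 5.33 in both lists, the value of 6 fragments at that background. Folds ran from 2.38 to 21.3 in Blf-FLAG 1 and from 2.64 to 25.9 in Blf-FLAG 2. The median −log10 q was 4.30 in both lists, and 10% of the peaks had 2.09 or less, close to the lowest values in the lists (2.02).

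Interior sites called for both factors (848) had more Blf-FLAG fragments, and sites of a single Blf-FLAG list had fewer. At sites of both factors the median was 9 fragments in each Blf-FLAG list, with an upper quartile of 15. Fragments were read for 857 of their 864 peaks in Blf-FLAG 1 and 861 of 868 in Blf-FLAG 2, with 591 and 572 the highest values that could be read. The unread peaks, those with a −log10 p over 290 among them, can hold more. The 2148 interior sites present in a single Blf-FLAG list and no other had a median of 6. Blf-only sites lay between them. These values come from the lists that made the calls. With the lists of a factor counted as 1 sample, the difference has no test.

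**Figure D1:**
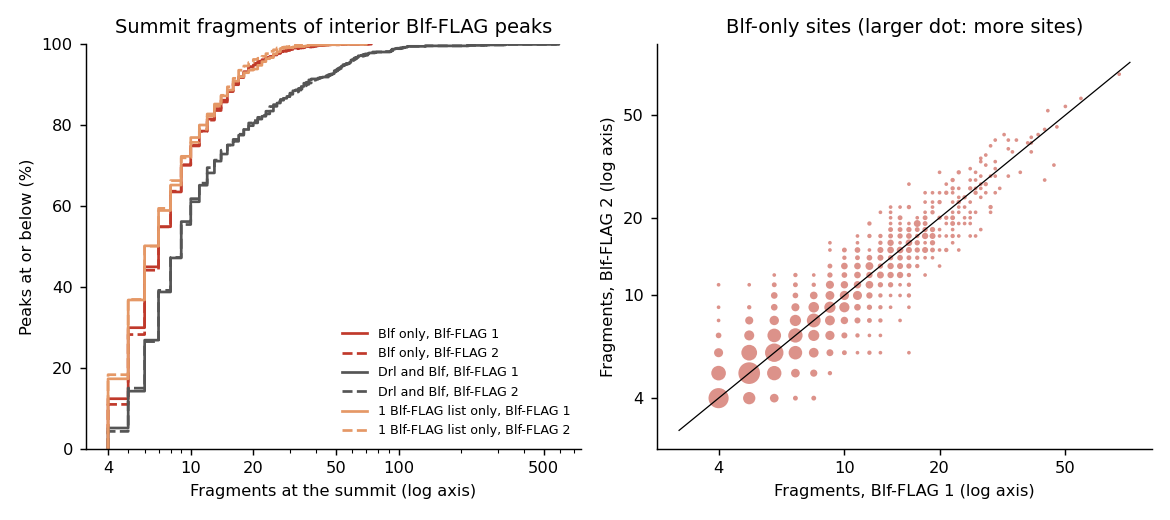
Left, the cumulative percentage of interior Blf-FLAG peaks against the fragments at their summit (log axis), for Blf-only sites, sites of both factors and sites of 1 Blf-FLAG list; solid lines are Blf-FLAG 1 and dashed lines Blf-FLAG 2. Right, the fragments of each Blf-only site in both lists (log axes, larger dots for more sites, line of equality); the left curves show medians of 7, 9 and 6 fragments, and the dots gather at 4 to 7 fragments in both lists.

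The 2 Blf-FLAG lists were much alike at these sites. Among 1993 overlapping pairs of peaks, 661 (33.2%) had the same start and end, and 967 (48.5%) had the summit on the same base. The median offset of summits was 1 bp, while 329 pairs (16.5%) had summits over 100 bp apart. Fragment counts were equal in 34.7% of pairs and at most 1 apart in 68.8%, with a largest difference of 15. The dispersion, the squared difference over the sum, averaged 0.304 over the 565 pairs with a mean of at least 10 fragments and 0.477 over the 111 with a mean of at least 20. Independent Poisson counts of equal mean would average 1. Only pairs called in both lists enter these values, which leaves out discordant ones such as the 2148 sites of a single list. With this limit, the difference between the lists was under the sampling noise, and they count as 1 sample here. No p-value is given for that reason, and intervals on shares cover counting error only.

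The number of Blf-only sites depends on asking for both lists and on how strong a peak must be. Without Blf-FLAG 1 the rule gave 3040 sites, and without Blf-FLAG 2 it gave 3096. With a −log10 q of at least 5 in all lists it gave 755. With that threshold on the Blf-FLAG lists alone it gave 662, or 51.3% of 1290 interior Blf sites (95% Clopper-Pearson interval 48.6 to 54.1).

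Blf-only sites were narrow. Their median width was 453.5 bp, with quartiles of 375 and 579 bp, and the narrowest measured 308 bp. Only 85 (4.28%) were wider than 1 kb and 10 wider than 2 kb. Sites of both factors had a median of 818 bp, and 31.5% of them exceeded 1 kb, but they join peaks of 4 lists where a Blf-only site joins peaks of 2. Single peaks of Blf-FLAG 1 and 2 had median widths of 537.5 and 530 bp at sites of both factors. At Blf-only sites these medians were 429 and 433 bp. Overlap by 1 bp favours wide peaks among shared sites, and its part in this difference was not tested. Drl-only sites, which also join 2 lists, had a median of 501 bp and 6.79% over 1 kb. All but 8 Blf-only sites held a single peak in each Blf-FLAG list. The median summit lay at 49.2% of the peak width in Blf-FLAG 1 and at 48.6% in Blf-FLAG 2.

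A missing Drl-FLAG call does not mean that no Drl-FLAG fragments were present. For each Blf-only site, the control background was carried over to the Drl-FLAG lists. The smallest number of Drl-FLAG fragments that reaches the lowest −log10 p of those lists (4.57) was computed. This least number for a call is the number needed below. The settings of the peak caller are not given, so a site may hold that many fragments or more and still go uncalled. Called summits at Drl-only sites held 8 or more, with a median of 14 in both Drl-FLAG lists. Control values were 2.44 times as high in Drl-FLAG 1 as in Blf-FLAG 1, the median over 163 shared sites (quartiles 2.36 and 2.44). These sites had control values over 2 times the genome-wide value and summits at most 100 bp apart. Carrying the background over assumes that both factors were compared with the same control, which the sources do not state. A call would have needed at least 8 Drl-FLAG fragments at all Blf-only sites, and 8 was the number needed at 1163 of them (58.6%). The upper quartile was 12 fragments and the highest value 103.

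Scaled by the coverage ratio, the Blf-FLAG fragments exceeded that number at all 1984 sites. Where 8 were needed, this follows from the choice of called sites, since the lowest count, 4 fragments, already scales to more than 8. Where more were needed, the Blf-FLAG call itself also took more fragments, so the result is not independent of the choice there either. The scaled median was 20.6 fragments, with a lowest value of 11.7 and a highest of 214. The number needed was 45.4% of the scaled Blf-FLAG count at the median site (quartiles 37.2% and 54.5%, range 9.08% to 74.5%). This percentage was 50 or less at 1227 sites and 25 or less at 122 sites (6.15%). The percentage sets the least Drl-FLAG count for a call against the scaled Blf-FLAG count. It is no estimate of the Drl-FLAG signal.

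Counting error weakens this for the smallest sites. A count of 4 fragments has an exact Poisson 95% interval of 1.09 to 10.2, which scales to 3.20 to 30.1 Drl-FLAG fragments around the 8 needed. A count of 10 scales to 14.1 to 54.0. The lower limit of the scaled interval was at or above the number needed at 810 sites (40.8%). At the other sites counting error in Blf-FLAG alone could bring the scaled count below the number needed. The comparison leaves out counting error in Drl-FLAG and any difference in enrichment between the libraries. It therefore shows no difference between the factors at any site, the 810 included. Sites were also chosen for being called in Blf-FLAG, which favours counts above their mean. For Drl-only sites the calculation runs the other way. At 63.7% of the 2739, the scaled fragments reached the least number for a Blf-FLAG call (median 4.77 fragments, against 4 needed).

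**Figure D2:**
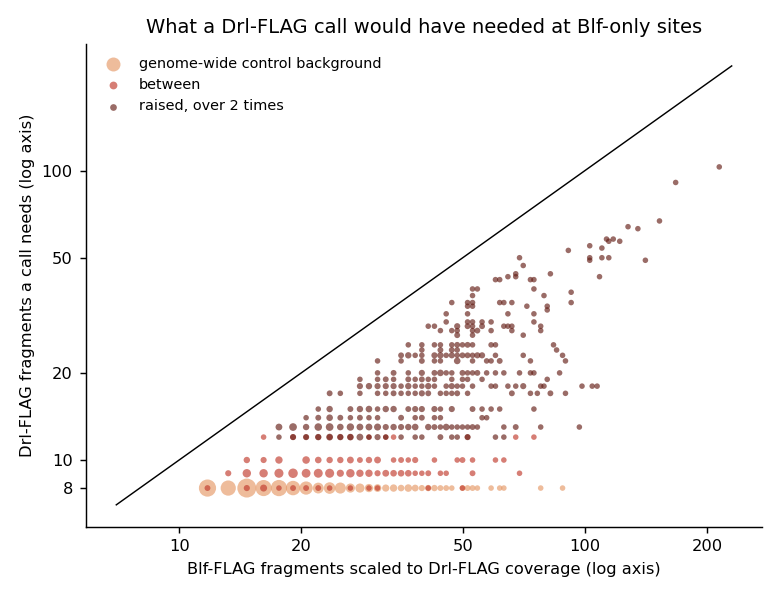
Each dot is 1 or more Blf-only sites; the x axis gives its Blf-FLAG fragments scaled to Drl-FLAG coverage and the y axis the Drl-FLAG fragments that a call needs there (log axes, line of equality, larger dots for more sites), coloured by control background. All 1984 sites lie below the line, with scaled counts from 11.7 to 214 and needed counts from 8 to 103.

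The 10 sites of highest rank come next. They were ranked by the mean percentile of fold enrichment among the nuclear peaks of the 2 Blf-FLAG lists. Control background was at its genome-wide value at 6 of the 10. The first lay on chromosome 4, in the part below 30 Mb, at chr4:21655070-21656551. Its summit held 27 and 33 Blf-FLAG fragments, with folds of 21.3 and 25.9. A Drl-FLAG call would have needed 8 fragments there, 9.08% of the scaled Blf-FLAG count of 88.1, and the nearest Drl-FLAG peak was 567 kb away. At 1482 bp it was also wide, whereas the other 9 measured 353 to 566 bp.

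The second, chr2:46516705-46517102, was a narrow peak of 398 bp with 23 and 30 fragments and folds of 18.3 and 23.6. The number needed was 10.3% of the scaled count. The third, chr1:25112420-25112772, had the most fragments of the 10, 36 and 30, with folds of 20.3 and 17.0. Control background there was 2.62 times the genome-wide value, and the number needed was 13 fragments, or 13.4% of the scaled count.

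The fourth, chr1:11834028-11834538, held 22 and 25 fragments at folds of 16.3 and 18.4. The fifth, chr12:31486277-31486728, held 22 and 20 fragments, and a Drl-FLAG peak lay 8.05 kb from it. At the sixth, chr3:31630118-31630674, the counts were 29 and 22 fragments and the folds 16.5 and 16.3. None of these had another Blf-only site within 10 kb, the nearest being 40.2 kb from the sixth.

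The seventh, chr18:5234706-5235147, was the least alike between the lists, with 26 and 17 fragments and folds of 20.6 and 13.7. The eighth, chr1:9736704-9737190, had 22 and 18 fragments, and the last of the 10, chr20:2363483-2364048, had 19 and 18. The ninth, chr15:9718663-9719189, had 23 fragments in both lists and lay in the densest stretch of Blf-only sites, 3.65 kb from a Drl-FLAG peak. Over the 10 sites, the number needed was 9.08% to 17.8% of the scaled Blf-FLAG count.

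Many fragments did not by themselves give a high rank. The most were counted at chr2:39399870-39400328, with 74 and 72 fragments, but at folds of 3.30 and 3.51 over a control background 66.3 times the genome-wide value. The control background entered the choice of sites only through the peak calls, and it varied widely among Blf-only sites. It was at the genome-wide value at 1138 of them (57.4%, 55.1 to 59.5). It was raised, meaning over 2 times that value, at 515 (26.0%, 24.0 to 27.9), against 31.3% of all interior sites with a Blf-FLAG peak. It was over 5 times that value at 242 sites and over 20 times at 24.

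Sites of both factors had raised background in 28.1% (25.1 to 31.3) by their Blf-FLAG values and 28.2% by their Drl-FLAG values. Drl-only sites had it in 10.4% (9.32 to 11.6), and sites of a single Blf-FLAG list in 36.5% (34.4 to 38.5). The share at Blf-only sites was thus below that of the single-list sites and above that of the Drl-only sites, the latter read from the Drl-FLAG lists. These differences have no test, since sites are not replicates of a factor. These shares are not independent of the choice, since the background enters each call. The classes also differ in depth and number of lists, and what part these have in the shares was not tested.

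Raised background went with larger counts at similar folds. At sites with raised background the median was 14 fragments (quartiles 10 and 18) with a median fold of 5.29. Genome-wide background went with a median of 5.5 fragments (5 and 7) and a fold of 4.95. Of the 509 Blf-only sites with at least 10 fragments in both lists, 367 (72.1%, 68.0 to 76.0) had raised background and 75 the genome-wide value. A call needs more fragments where the background is larger. Blf-only sites with high counts thus mostly had raised background, by the mean of both lists. Of the 10 of highest rank, 1 had it, the third. The sixth (2.62 and 1.31 times the genome-wide value) and the ninth (1.89 and 2.01) were over 2 times in 1 list only. Rank follows fold, which is taken over the background, and 30.2% of the highest decile by fold had raised background.

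Most Blf-only sites had no other Blf-only site within 10 kb. The nearest other interior Blf-only site was 173 kb away at the median, and 207 sites (10.4%, 9.12 to 11.9) had one within 10 kb. Over all interior sites, 30.3% had another site of any class within 10 kb. That is a wider set of neighbours, so it cannot be set directly against the 10.4%. Sites of both factors had another of their class within 10 kb in 19.7% (17.1 to 22.5), and Drl-only sites in 15.7% (14.4 to 17.1), although these classes differ in number. At genome-wide control background, 4.22% of Blf-only sites (3.13 to 5.55) had another within 10 kb, against 22.7% (19.2 to 26.6) at raised background. This split includes the dense stretches described below, where the median background was raised, and was not recomputed without them. Linked by gaps of up to 10 kb, 1777 sites were single and 136 formed 68 pairs. A further 71 formed 13 runs of 3 or more.

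Drl-FLAG peaks lay at a wide range of distances from Blf-only sites. The nearest Drl-FLAG peak of either list was 88.7 kb away at the median, with quartiles of 22.9 and 206 kb. It lay within 500 bp at 52 sites (2.62%, 1.96 to 3.42), within 1 kb at 90 (4.54%) and within 10 kb at 322 (16.2%, 14.6 to 17.9). A Drl-only site lay within 10 kb of 148 Blf-only sites (7.46%), and a site of both factors within 10 kb of 90 (4.54%). The like shares over all interior sites are not given, so these distances do not show whether Drl-FLAG peaks favoured or avoided Blf-only sites.

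Neighbours within 10 kb were more frequent in the highest decile by fold than in the lowest. In the highest decile by fold, 22.6% (17.0 to 29.1) had a Drl-FLAG peak within 10 kb, and in the lowest decile 7.54% (4.28 to 12.1). Another Blf-only site lay within 10 kb of 15.6% (10.8 to 21.4) in the highest decile and of 5.03% (2.44 to 9.05) in the lowest, with no fall from the second decile (10.1%) to the sixth (14.1%). Raised background did not follow this order, with 30.2% in the highest decile, 19.2% in the eighth, 34.8% in the ninth and 23.6% in the lowest. The 25 closely spaced sites of the chromosome 15 stretch described below had a median fold of 9.48, against 9.90 in the highest decile. The deciles were not recomputed without that stretch, so its part in the neighbour shares was not tested.

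**Figure D3:**
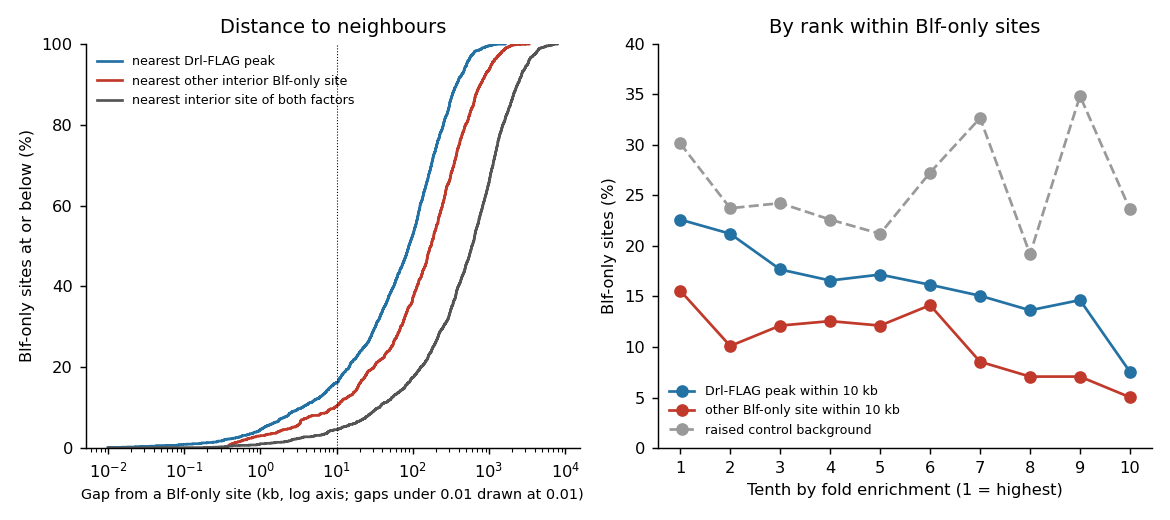
Left, the cumulative percentage of Blf-only sites against the gap to the nearest Drl-FLAG peak, other interior Blf-only site and interior site of both factors (kb, log axis; dotted line at 10 kb), which reach 16.2%, 10.4% and 4.54% at 10 kb. Right, by decile of Blf-only sites ranked by fold (1 is the highest), the percentages with a Drl-FLAG peak or another Blf-only site within 10 kb, and with raised control background; both neighbour curves end lower than they start, from 22.6% to 7.54% and from 15.6% to 5.03%.

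At the edge of the rule, the class of a site can turn on a few bases. The Blf-only site at chr7:21752477-21753530, with 7 fragments in both Blf-FLAG lists, abutted a Drl-FLAG peak, with a gap of 0 bp. Gaps of 4 and 9 bp separated chr1:30798422-30798761 (12 and 14 fragments) and chr3:53155558-53155904 (4 and 4) from a Drl-FLAG peak. On the other side, chr15:7225905-7227427 counted as shared by an overlap of 1 bp, with 35 and 31 Blf-FLAG and 31 and 30 Drl-FLAG fragments. Overlaps of 5 and 7 bp made chr16:8132295-8133262 and chr24:2449581-2450776 shared. A further 183 interior sites had peaks in both Blf-FLAG lists and in a single Drl-FLAG list. Their Drl-FLAG peaks held 8 to 51 fragments with a median of 15, and their Blf-FLAG summits a median of 9.5.

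For position, the site nearest to an end was chr10:44379822-44380224, centred 1002 kb from it, with 5 fragments in both lists. The nearest Blf-only site dropped was chr15:998903-999341, at 999 kb, with 6 and 6. On chromosome 4 the last site kept was chr4:29722414-29722762, with 4 and 4 fragments at the genome-wide background. The first dropped was chr4:31231928-31232305, with 12 and 12 fragments at a background 9.16 times that value. In all, 413 Blf-only sites near an end and 164 on chromosome 4 from 30 Mb were left out.

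Blf-only sites were spread over all 25 chromosomes. Their density over the interior span of 1247 Mb was 1.59 per Mb, compared with 0.680 for sites of both factors, and the same span held 2739 Drl-only sites. By chromosome it ran from 1.19 per Mb on chromosome 5 (84 sites) to 2.22 on chromosome 15 (102 sites), with chromosome 3 next at 2.17 (131 sites). The chromosome 15 and chromosome 3 values include 25 and 19 sites of the dense 1-Mb stretches described below. Blf-only sites made up 42.0% of the factor-only sites (40.6 to 43.4). The interval of a single chromosome left out this value in 2 of 25 cases, unadjusted for the 25 intervals. On chromosome 5 the share was 33.1% (27.3 to 39.2), and on chromosome 14 it was 49.5% (42.1 to 56.9). The median count of fragments was between 6 and 8 on every chromosome. Raised background varied more, from 10.9% of the sites on chromosome 17 to 40.2% on chromosome 15. The latter share includes the 25 sites of the dense stretch, whose median background was 5.23 times the genome-wide value.

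**Figure D4:**
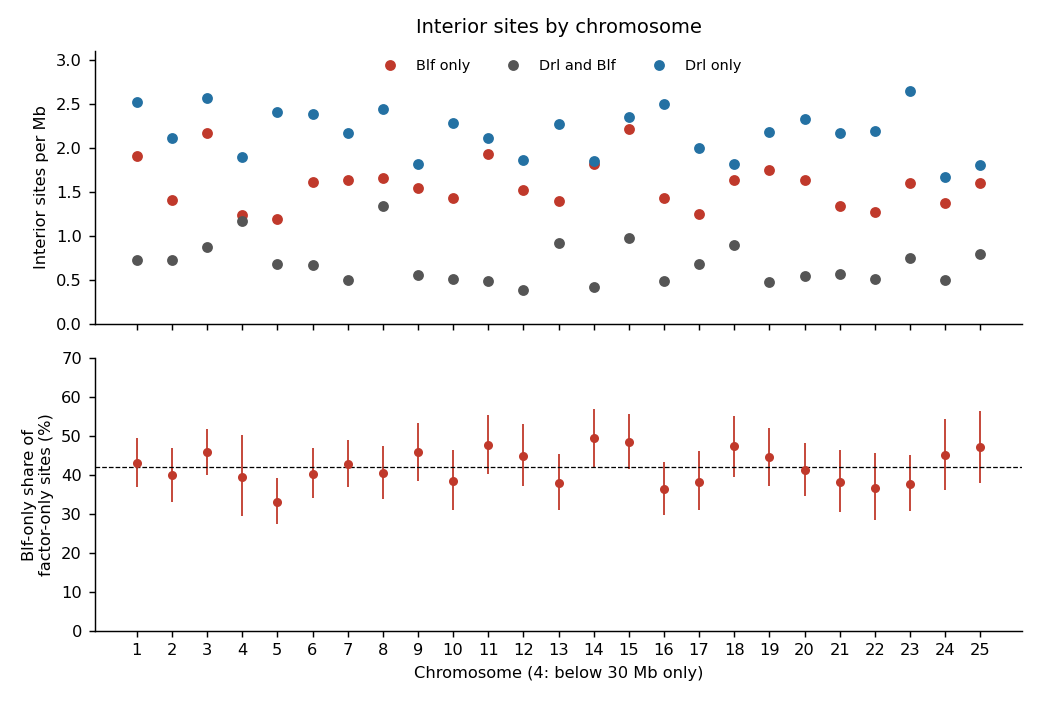
Top, interior sites per Mb on each of the 25 chromosomes for Blf-only sites, sites of both factors and Drl-only sites. Bottom, Blf-only sites as a percentage of Blf-only plus Drl-only sites with 95% Clopper-Pearson intervals; the dashed line is the value over all chromosomes, 42.0%, and the lowest point is chromosome 5 at 33.1%.

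A few short stretches held far more. Of 1262 stretches of 1 Mb, 931 held a Blf-only site, 415 of them a single one and 56 of them 5 or more. The highest numbers were 25 on chromosome 15 from 9 to 10 Mb, 19 on chromosome 3 from 39 to 40 Mb and 11 on chromosome 1 from 53 to 54 Mb, followed by 10. The 3 differed in form. The median control background of their Blf-only sites was raised in each, and its part in these sites was not tested.

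The chromosome 15 sites belonged to a series of Blf-FLAG peaks with a recurring spacing. All 25 lay in 241 kb, at chr15:9635035-9876384, where 48 sites had a peak in both Blf-FLAG lists. Of the 47 spacings between the summits of these 48 sites, 30 measured 4.0 to 4.5 kb, a window chosen after the data were seen, and the median was 4233 bp. Among the 25 Blf-only sites alone, 11 of 24 spacings fell in that window and 10 exceeded 10 kb. Over all 84 sites of the stretch, with those of single lists and of Drl-FLAG, 6 of 83 spacings did, and the median was 2257 bp. The summits of the 25 Blf-only sites held 7.5 to 36.5 fragments (mean of both lists, median 24). The median background of these 25 sites was 5.23 times the genome-wide value. Drl-FLAG peaks were present in the same stretch, 33 and 42 of them with 12 to 33 fragments, and 8 sites counted as shared and 9 as Drl-only. A Drl-FLAG call at the Blf-only sites would have needed 9 to 22 fragments, so Blf-only and shared sites lay side by side.

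On chromosome 3, 18 sites lay within 60.6 kb, at chr3:39012925-39073474, the longest run of Blf-only sites. Peaks covered 53.8% of this run in Blf-FLAG 1 and 53.0% in Blf-FLAG 2, and 2.51% and 2.31% in the Drl-FLAG lists. The run was picked by its Blf-only sites, which hold no Drl-FLAG peak by the rule. For the part that these sites cover, the absence of Drl-FLAG peaks is therefore built in. The rule does not fix the Drl-FLAG coverage of the rest of the run. Site widths had a median of 1349 bp and reached 3462 bp. Fragments ran from 11.5 to 21 (mean of both lists), folds from 3.94 to 7.95, and the background from 4.31 to 7.85 times the genome-wide value. The Drl-FLAG lists had 4 and 3 peaks in the run, with 20 to 25 fragments, and 17 to 23 were needed at the Blf-only sites. The highest-ranked of these sites, chr3:39042464-39043050, had 16 and 15 fragments at folds of 7.12 and 6.70.

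The run on chromosome 1 was the shortest of the 3. In 29.9 kb, at chr1:53416584-53446434, 8 Blf-only sites covered most of the sequence, with peaks over 74.8% of it in Blf-FLAG 1 and 80.4% in Blf-FLAG 2. No Drl-FLAG peak lay in it, which the rule already fixes for the part that the Blf-only sites cover. The 3 widest Blf-only sites belonged to it, at 6403, 4411 and 3529 bp. The widest, chr1:53418716-53425118, had 43 and 44 fragments, but folds of only 3.31 and 4.00. Control background was 27.5 to 36.0 times the genome-wide value over the run (mean of both lists), and folds stayed between 3.23 and 4.33. A Drl-FLAG call would have needed 53 to 64 fragments, against scaled Blf-FLAG counts of 91.0 to 135. The highest-ranked Blf-only site of this Mb lay outside the run, at chr1:53727317-53727886, with 7 and 6 fragments at the genome-wide background.

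**Figure D5:**
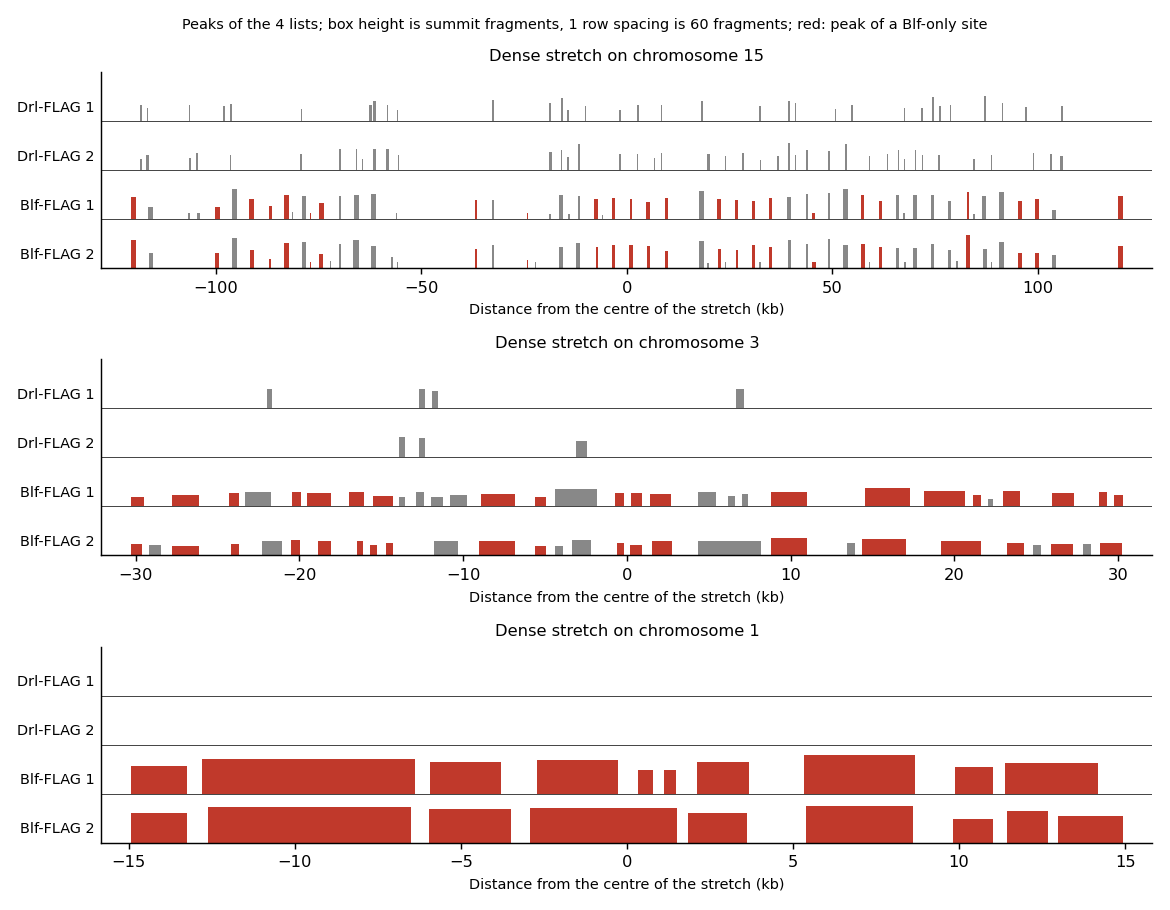
Peaks of the 4 lists in the 3 dense stretches, by distance from the centre of the stretch (kb); each box spans a peak, its height is the fragments at the summit (1 row spacing is 60 fragments), red boxes belong to Blf-only sites and grey boxes to other sites. Blf-FLAG peaks recur at about 4.2 kb on chromosome 15, cover 53.8% and 53.0% of the run on chromosome 3, and stand without any Drl-FLAG peak on chromosome 1. Blf-only sites hold no Drl-FLAG peak by the rule.

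Left out next were the dense parts of these 3 stretches, with 25, 18 and 8 Blf-only sites, and not the whole 1-Mb stretches. This left 1933 Blf-only sites. The share with another within 10 kb was then 8.33% (7.14 to 9.65), the share with raised background 24.1%, and the median width 450 bp. Outside them, the longest run was 5 sites in 13.1 kb at chr12:16804757-16817905, with a median of 8 fragments and a median background 2.42 times the genome-wide value.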

How the data were processed

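The deposited files were 1 narrowPeak list per anti-FLAG library. Per the submitters' processing notes, the build was GRCz11 and the tools were MACS2, bedtools 2.30.0, SAMtools 1.10, Picard 2.26.1, Bowtie2 2.4.2, FastQC 0.11.9 and bcl2fastq. The sources used here do not give settings or the control. Deposited columns held the fold at the summit (a ratio), −log10 of its p-value and of its q-value, the summit offset and a score for display, which was not used.

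Fragments and control background were inferred from the authors' fold and −log10 p by the MACS2 formulas (Poisson upper tail, pseudocount of 1), as the whole number matching the fold within 0.005%. This read back 99.4% to 99.8% of peaks and every summit of a Blf-only site. At 27 Blf-only sites more than 1 whole number matched in a list, and the closest match was taken. A −log10 p over 290 was not read. The commonest background of a list was called genome-wide. A fragment added 1 to the pileup in Blf-FLAG lists and 0.803 or 0.802 in Drl-FLAG lists. The steps were tested on simulated data.

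Chromosome ends were the last peak end in any list, and groups follow the sample titles. Members, lists and named sites were chosen with earlier results of these data known. Named were the 10 sites of highest rank, the 3 widest, the 3 nearest to a Drl-FLAG peak, those at the edges of the rule, and the 3 densest stretches of 1 Mb with their highest-ranked site. The site with most fragments and the chromosome 12 run were picked after their values were seen. Intervals are exact Clopper-Pearson or Poisson at 95% and cover counting error only. Python 3.11.15, numpy 2.4.6, pandas 2.3.3, scipy 1.17.1 and matplotlib 3.10.9 were used. Alternatives were another −log10 q, overlap, end margin, control background or set of lists.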

Additional observations from a re-analysis of the deposited data

How the results depend on the processing

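The number of Blf-only sites, their share of interior Blf sites, their median width, and the shares with raised background and with another Blf-only site within 10 kb were recomputed under 12 settings. With a −log10 q of at least 5 in all lists these were 755, 58.5%, 519 bp, 36.2% and 14.3%. With it in the Blf-FLAG lists alone, the first 4 were 662, 51.3%, 504 bp and 35.2%. A reciprocal overlap of 50%, computed on the peaks of Blf-FLAG 1 and not on joined sites, gave 74.5%, 435.5 bp and, within 10 kb, 12.4%. The median width of Blf-FLAG 1 peaks at the Blf-only sites was 429 bp. Counting Drl-FLAG peaks within 500 bp as overlapping gave a share of 64.1%. At the genome-wide background, 1138 sites, 68.7%, 431.5 bp and 2.28% remained, and the raised share was 0 by construction. The 2.28% counts only neighbours that are also at that background, so part of its fall is built in. With any Blf-only site as neighbour, the share of these 1138 sites was 4.22%. Leaving out 1 list gave 2073 to 3096 sites, 68.7% to 72.7%, 419 to 458 bp, 26.7% to 30.1% and 11.7% to 13.4%. The counts of 3040 and 3096 were those with Blf-FLAG 1 or Blf-FLAG 2 left out, where 1 list stood for the factor. Alternatives added after seeing the data were a minimum of 10 fragments (509, 54.3%, 537 bp, 72.1% and 16.3%) and leaving out the dense parts of the 3 stretches (8.33% within 10 kb). Leaving out 2 Mb at the ends left 1836 sites and moved none of the other 4 values beyond its interval. The cause of these changes was not tested.

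No paired analysis was possible because each factor had 1 sample, its lists differing by less than the sampling noise. Promoter, gene and motif analyses were not run, since GRCz11 annotation and sequence were not used here. The Blf-FLAG coverage of 0.313 fragments per base limits what can be said of the weakest sites.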
